A study of Rattus norvegicus with 12 samples.

Results

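Fibronectin and the matricellular proteins were described through 8 genes, which were every gene on a named list that had a row in the tables, out of 22850 features measured. They were the fibronectin gene Fn1, the periostin gene Postn, the tenascin C gene Tnc, the thrombospondin genes Thbs1 and Thbs2, the gene of the secreted acidic cysteine-rich glycoprotein Sparc, the osteopontin gene Spp1 and the versican gene Vcan. The genes were taken by symbol and not by their values, although results of these data were known when the list was drawn up. All 8 passed the filter on low counts in each comparison.

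RNA was sequenced in bulk from 12 libraries of cultured primary atrial fibroblasts of newborn Sprague-Dawley rats, 4 libraries in each of 3 groups. The AngII group received angiotensin II, the vasoactive peptide used here to provoke a fibrotic state, at 1 µmol/L for 48 h in medium with 2% FBS. The AngII+HNG group received the same AngII after 1 h of pretreatment with 10 µmol/L HNG, a glycine-substituted analogue of the mitochondrial-derived peptide humanin, and the AngII+MOTS-c group after 1 h with 5 µmol/L MOTS-c, another mitochondrial-derived peptide. Every group therefore carried AngII, the effect of AngII itself is not analysed here, and the doses of the peptides differed. The fibroblasts were obtained by differential adhesion and were not sorted, and all 9 fibroblast markers were at 1 CPM (a gene's counts scaled to the library total) or more in each group. With 4 libraries a group, the p-values measure only the spread between these libraries. Total counts ran from 27960586 to 38322354 per library, so that 3 counts corresponded to at most 0.107 CPM and no member was near the limit of detection. The libraries numbered 4 stood apart from the others of their group in several members, and AngII+HNG replicate 3 differed most from the other libraries of its group over all genes, so values without them are given for the differences they moved most.

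Matricellular proteins are secreted into the extracellular matrix, where they act less as building material than as signals: they bind integrins, syndecans, growth factors and structural fibres and alter how cells attach, migrate and lay down collagen. Fibronectin is a structural glycoprotein that cells assemble into fibrils and on which collagens and several matricellular proteins are deposited. In the heart, expression of several of these genes is low in the healthy adult and rises during development, after injury and in fibrosis, with fibroblasts as a main source.

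The start regions of the 2 genes that passed the test against AngII are shown because their levels moved in opposite directions under HNG. Of the 8 members, 6 had an entry in the RefSeq promoter table of the GRCr8 build; Fn1 and Thbs2 had none there. Each sequence is the 250 bases before the annotated start, read 5′ to 3′ on the gene's strand, which was the minus strand for both. Capitals mark matches, on either strand, to the TATA box (TATANA) and the RUNX motif (TGNGGT), and the AP-1, TEAD and CArG box motifs searched with them had no match in either window. The Spp1 region is chr14:5619805-5620054 and the Tnc region is chr5:82476132-82476381.
Spp1: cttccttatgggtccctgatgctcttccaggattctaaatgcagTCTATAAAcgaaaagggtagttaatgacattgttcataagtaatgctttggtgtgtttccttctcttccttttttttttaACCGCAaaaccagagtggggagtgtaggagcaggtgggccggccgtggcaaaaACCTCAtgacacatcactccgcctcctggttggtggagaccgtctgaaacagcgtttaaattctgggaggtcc
Tnc: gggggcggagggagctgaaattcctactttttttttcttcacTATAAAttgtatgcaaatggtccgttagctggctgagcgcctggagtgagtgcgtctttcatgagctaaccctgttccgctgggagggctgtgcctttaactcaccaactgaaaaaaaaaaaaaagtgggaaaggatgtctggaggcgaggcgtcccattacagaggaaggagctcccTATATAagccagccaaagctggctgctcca

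Both windows held TATANA matches. In Spp1 the overlapping matches on the opposite strands began 206 and 204 bases before the start, and in Tnc the matches began 208 and 30 bases before it. Spp1 also held 2 RUNX matches, beginning 126 and 73 bases before the start, and Tnc held none. TATANA occurred in 24.2% of 33469 rat promoter windows of the same length and TGNGGT in 41% of them, so these matches are common. The motifs without a match were AP-1 (TGANTCA), found in 6.34% of windows, TEAD (GGAATG), found in 12.1%, and the CArG box, found in 1.5%. Among the other members Thbs1 held a TEAD match beginning 47 bases before the start and Sparc 1 beginning 33 bases before it. TATANA also matched in Postn, and TGNGGT in Sparc and Vcan, so neither motif was particular to Spp1 or Tnc. The E-box (CANNTG), left in lower case, had 1 match in Spp1 and 2 in Tnc, against at least 1 match in 65.5% of windows. These are letter matches and were not tested for binding.

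Levels were compared between genes on the FPKM scale, which divides counts by gene length and library total. Sparc, whose product binds collagen and guides its assembly, had the highest FPKM of the 8, with a mean of 3171 over the 12 libraries and a range of 2946 to 3330. Fn1 followed at 1016 FPKM (961.6 to 1085), 3.12-fold below Sparc. The next level was that of Thbs1, at 553.9 FPKM (484.6 to 625.4), whose product activates latent TGF-β and binds CD47. Sparc and Fn1 held the first and second places among the members in 12 of 12 libraries, and by mean FPKM they were the 10th and 41st of all features.

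Postn, which encodes a collagen-binding protein characteristic of activated fibroblasts, had 477.2 FPKM (368.1 to 637), a range that overlapped that of Thbs1. Thbs1 lay above Postn in 9 of 9 libraries numbered 1 to 3, and Postn lay above Thbs1 in 3 of 3 libraries numbered 4. Spp1, an integrin and CD44 ligand with cytokine properties, lay below these 4 genes and above the remaining 3 in 12 of 12 libraries, at 185.1 FPKM (122 to 306.1). The lowest levels were those of Vcan at 44.74 FPKM (36.41 to 48.12), of Tnc at 43.42 FPKM (34.42 to 53.72) and of Thbs2 at 32.55 FPKM (27.44 to 42.32). The ranges of Vcan and Tnc overlapped, as did those of Tnc and Thbs2, so neither neighbouring pair was separated beyond its spread over all libraries, although Thbs2 was the lowest of the 8 in 11 of 12 libraries. Together the 8 genes took 2.129% to 2.183% of all counts in AngII, 2.159% to 2.205% in AngII+HNG and 2.133% to 2.254% in AngII+MOTS-c, a share that overlapped between all 3 groups.

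**Figure D1:**
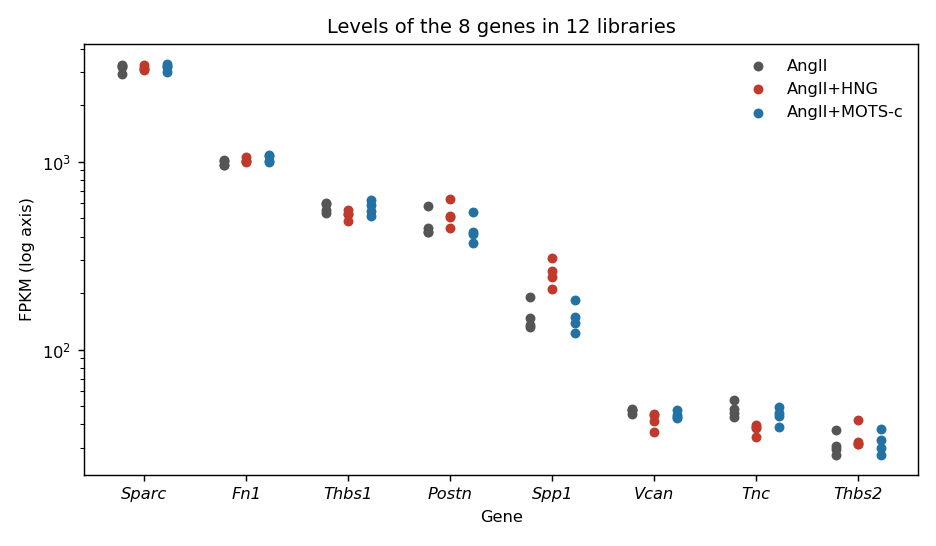
FPKM of the 8 genes in each of the 12 libraries, on a log axis, with points coloured by group. Sparc lies near 3171 FPKM and Thbs2 near 32.55 FPKM, and Spp1 is the gene whose groups separate most clearly, with AngII+HNG above the other two groups.

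The members differed in how much they varied. Over the 12 libraries the coefficient of variation of CPM was 31.6% for Spp1, 16.5% for Postn, 13.6% for Thbs2 and 12.6% for Tnc, against 3.59% for Fn1 and 3.72% for Sparc. The most abundant genes of the set were thus also the least variable in these cultures.

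HNG was compared with AngII alone to ask whether the peptide altered matrix gene expression in cells exposed to AngII. With HNG, Spp1 rose 1.66-fold and Tnc fell by 24.2%, while the other 6 members did not pass the threshold of an adjusted p below 0.05. Of the 14524 genes tested, 869 passed (5.98%), 494 higher (3.4%) and 375 lower (2.58%), and of the 8 members 2 passed, 1 in each direction. The median log2 fold change of the members was 0.00258, beside 0.00431 over all genes tested.

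Spp1 encodes osteopontin, a secreted phosphoprotein that binds αv integrins and CD44. In AngII its level was 209.8, 233.2, 213.3 and 304 CPM in replicates 1 to 4, a mean of 240.1 ± 43.9 CPM (SD, n = 4). In AngII+HNG it was 381.8, 407.1, 330 and 477.6 CPM, a mean of 399.1 ± 61.4 CPM (SD, n = 4). The groups did not overlap, since the lowest HNG library lay above the highest AngII library. The log2 fold change was 0.74 ± 0.12 (SE; 95% interval 0.48 to 0.99), with an adjusted p of 0.0035 by the edgeR quasi-likelihood test. Without the libraries numbered 4 the log2 fold change was 0.77 with an adjusted p of 0.00038. Without AngII+HNG replicate 3 it was 0.81 with an adjusted p of 0.00106. Over all omissions of libraries the log2 fold change went down to 0.638 and the adjusted p up to 0.0211. With robust estimation in edgeR the adjusted p was 0.0488, just below the threshold.

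Osteopontin is also made in quantity by macrophages, and the level of macrophage markers moved with that of Spp1. All 13 macrophage markers on the list were detected in each group and 12 were at 1 CPM or more. Their summed level was 274.5 to 331.7 CPM in AngII, 368.7 to 482.8 CPM in AngII+HNG and 269.6 to 328.1 CPM in AngII+MOTS-c, highest in the library numbered 4 of each group. Of the 12 that were tested, 4 were higher with HNG than with AngII alone, namely Lyz2 (log2 fold change 0.75, adjusted p = 0.000262), Cd68 (0.69, adjusted p = 0.00343), Mrc1 (0.55, adjusted p = 0.00568) and Ptprc (0.37, adjusted p = 0.0257), and none was lower. Over 21 alternatives Ptprc lost its call in 7, while Lyz2, Cd68 and Mrc1 kept theirs in all. The median log2 fold change of the 12 markers tested was 0.29. Of the 8 that did not pass, 5 had a fitted log2 fold change above 0 (C1qa 0.10, Csf1r 0.17, Cd14 0.29, Fcer1g 0.29 and Tyrobp 0.31) and 3 below 0 (C1qb -0.05, Adgre1 -0.36 and C1qc -0.43). In bulk RNA a larger number of cells of a type and more RNA per cell cannot be told apart, and the part of these markers in the Spp1 result was not tested.

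Markers of other cell types were measured in the same way. Fibroblast markers summed to 59680 to 67180 CPM with overlapping groups, and 2 of 9, Tcf21 and Thy1, were called higher with HNG than with AngII alone. Endothelial markers summed to 64.74 to 72.95 CPM in AngII and 82.95 to 91.21 CPM in AngII+HNG, with 3 of 8 called higher, and to 68.67 to 74.36 CPM in AngII+MOTS-c. Cardiomyocyte markers summed to 5196 to 5898, 5471 to 6438 and 4746 to 6180 CPM in the 3 groups, which overlapped, with 1 of 8, Tnni3, called higher with HNG than with AngII alone (log2 fold change 0.43, adjusted p = 0.0131). Schwann cell markers, at 7.676 to 11.22 CPM over all libraries, and epicardial and mesothelial markers, at 82.32 to 95.79 CPM, overlapped between groups as well. No Schwann cell marker was called, and 1 of 6 epicardial and mesothelial markers, Upk1b, was called higher with HNG than with AngII alone (log2 fold change 0.81, adjusted p = 0.00776).

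Tnc encodes tenascin C, an anti-adhesive hexameric glycoprotein that appears in remodelling matrix. Its level in AngII was 338.3, 321.9, 303.1 and 304.6 CPM, a mean of 317 ± 16.6 CPM (SD, n = 4). With HNG it was 241.2, 250.5, 232.5 and 235.4 CPM, a mean of 239.9 ± 7.94 CPM (SD, n = 4). All 4 HNG libraries lay below all 4 AngII libraries. The log2 fold change was -0.40 ± 0.04 (SE), a change of -24.2% (95% interval -29% to -19%), with an adjusted p of 0.00032, and by p Tnc was the 29th of the genes tested. Without the libraries numbered 4 the change was -0.41 on the log2 scale with an adjusted p of 0.00164. Without AngII+HNG replicate 3 it was -0.39 with an adjusted p of 0.000326. The highest adjusted p over 21 alternatives was 0.0408, from limma on log2(FPKM + 1). Smooth muscle and pericyte markers summed to 5764 to 6281 CPM with HNG, lower than the 7272 to 7537 CPM in AngII. Of the 9 markers 5 were called lower (Myh11, Acta2, Cnn1, Tagln and Notch3) and none higher, while Des, Rgs5, Kcnj8 and Abcc9 did not pass. Acta2, at 4151 CPM in AngII, and Tagln, at 2158 CPM, made up most of the sum. The paper used α-SMA, the product of Acta2, as a marker of fibroblast activation. The sum is therefore no measure of smooth muscle cell or pericyte number, and the part of these markers in the Tnc result was not tested.

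**Figure D2:**
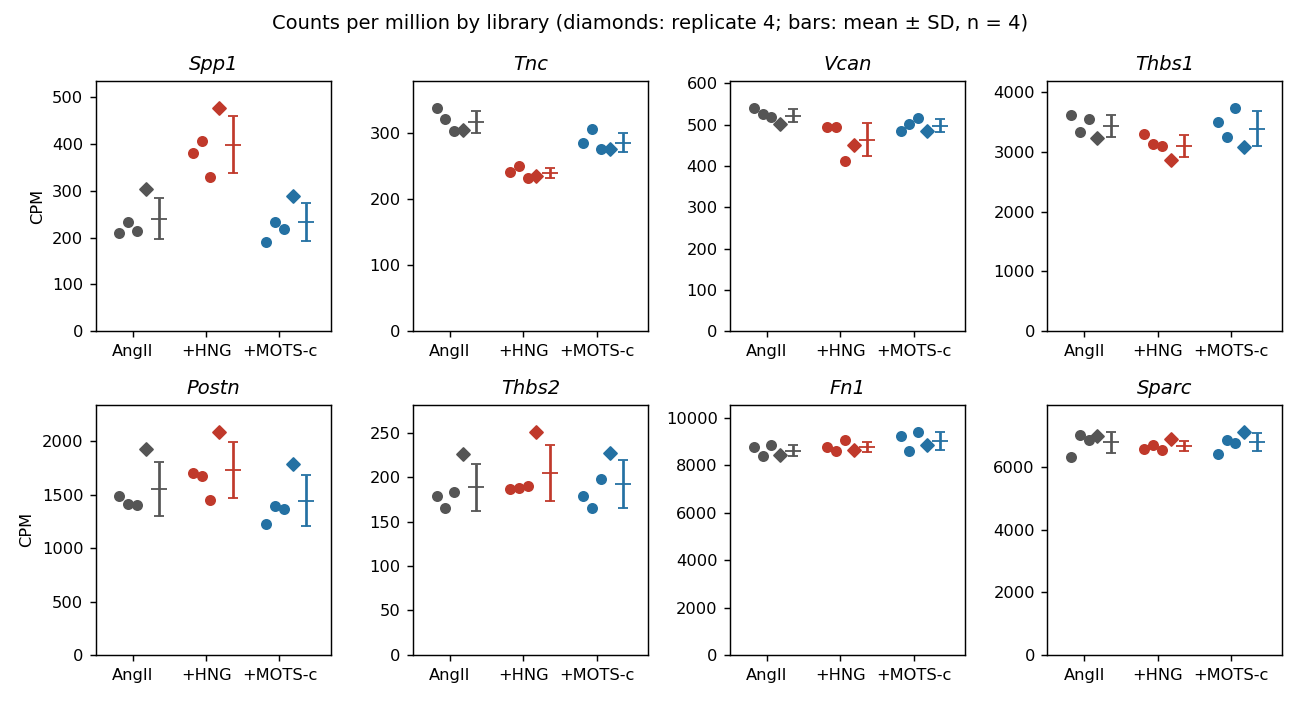
CPM of each of the 8 genes by group, on linear axes, with 1 point for each library, diamonds for replicate 4, and the group mean shown with its SD (n = 4). Spp1 in AngII+HNG (330 to 477.6 CPM) lies above the other groups, Tnc in AngII+HNG (232.5 to 250.5 CPM) lies below them, and the libraries numbered 4 are highest for Postn and Thbs2 in every group.

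Vcan encodes versican, a large chondroitin sulphate proteoglycan that binds hyaluronan. In AngII it had 540.7, 525.7, 517.4 and 502 CPM, a mean of 521.5 ± 16.1 CPM (SD, n = 4), and in AngII+HNG 494.4, 495.5, 412.4 and 450.6 CPM, a mean of 463.2 ± 39.8 CPM (SD, n = 4). The groups did not overlap, but replicate 3 of the HNG group lay well below the others of its group. The change was -11% (95% interval -18.1% to -3.42%) with an adjusted p of 0.0977, above the threshold, and DESeq2 gave an adjusted p of 0.034. Over 21 alternatives the adjusted p ran from 0.0299 to 0.245 and was below the threshold in 2. Without AngII+HNG replicate 3 the log2 fold change went from -0.17 to -0.12 (adjusted p = 0.123), and without the libraries numbered 4 it was -0.17 (adjusted p = 0.192). Groups that did not overlap were found for 3 members (Spp1, Tnc and Vcan), and for 13.6% of all genes tested.

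Thbs1 had 3606, 3330, 3550 and 3232 CPM in AngII and 3293, 3127, 3096 and 2864 CPM in AngII+HNG, means of 3429 ± 178 and 3095 ± 177 CPM (SD, n = 4). The groups overlapped through HNG replicate 1, although all 4 HNG libraries lay below the AngII mean. The change was -9.6% (95% interval -15.9% to -2.81%) with an adjusted p of 0.105, and 0.0385 by DESeq2. The adjusted p ran from 0.0117 to 0.32 over 21 alternatives, below the threshold in 3, and was 0.121 without the libraries numbered 4 and 0.111 without AngII+HNG replicate 3.

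Thbs2, the other thrombospondin of the set and an inhibitor of angiogenesis, had 178.9, 165.3, 183.7 and 226 CPM in AngII and 186.8, 188.1, 190.5 and 251.3 CPM in AngII+HNG. The change was 8.5% with a 95% interval from -7.17% to 26.8% (adjusted p = 0.592), and the groups overlapped. Postn had 1484, 1412, 1401 and 1932 CPM in AngII and 1707, 1674, 1455 and 2092 CPM with HNG, a difference of 11.4% (95% interval -5.71% to 31.5%, adjusted p = 0.485). In both genes the library numbered 4 lay above the rest of its group by more than the groups differed, and single libraries moved the values. For Thbs2 the log2 fold change of 0.12 became 0.22 without AngII replicate 4, 0.0027 without AngII+HNG replicate 4 and 0.10 without both. It was 0.056 without AngII replicate 2. For Postn the log2 fold change of 0.16 became 0.27 without AngII replicate 4, 0.05 without AngII+HNG replicate 4 and 0.17 without both. It was 0.23 without AngII+HNG replicate 3.

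Fn1 had 8767, 8408, 8877 and 8436 CPM in AngII and 8765, 8596, 9094 and 8638 CPM in AngII+HNG. The difference was 1.92% with an interval from -3.15% to 7.27% (adjusted p = 0.723). Sparc had 6312, 7012, 6863 and 6998 CPM in AngII and 6569, 6718, 6541 and 6898 CPM with HNG, a difference of -1.54% (95% interval -7.2% to 4.47%, adjusted p = 0.819). Without the libraries numbered 4 the log2 fold changes of Fn1 and Sparc were 0.03 and -0.02, with adjusted p-values of 0.802 and 0.843. With single libraries left out, the log2 fold change of Fn1 ran from 0.0081 without AngII+HNG replicate 3 to 0.04 without AngII replicate 3, and that of Sparc from -0.06 without AngII replicate 1 to -0.0094 without AngII replicate 4. For these abundant genes the intervals with all libraries held no change beyond 7.27% in either direction. Counts per gene do not separate the splice forms of fibronectin, so its extra domains, the parts most associated with fibrosis, could not be read.

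MOTS-c was compared with AngII alone in the same way, with the AngII libraries shared between the comparisons. No member passed the threshold in the edgeR test, and 1 of the 8, Tnc, had an unadjusted p below 0.05. Over all 14488 genes tested 732 had an unadjusted p below 0.05 and 1 passed after adjustment (0.0069%), Trim15, which was no member and was named after its value was seen. DESeq2 and limma called no member either, nor did edgeR without the libraries numbered 4. The median log2 fold change of the members was -0.03 beside -0.000757 over all genes tested, and no member had groups that did not overlap, against 3.44% of genes.

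Tnc had 284.7, 306.8, 275.9 and 275.5 CPM in AngII+MOTS-c, a mean of 285.7 ± 14.7 CPM (SD, n = 4), beside 317 ± 16.6 CPM in AngII. Each MOTS-c library lay below the AngII mean, but replicate 2 lay above the lowest AngII libraries, so the groups overlapped. The difference was -9.8% (95% interval -15.5% to -3.76%), with an unadjusted p of 0.00436 and an adjusted p of 0.924. Spp1 had 191.6, 232.8, 218.9 and 289 CPM, a mean of 233.1 ± 41 CPM (SD, n = 4) and a difference of -2.91% (95% interval -19.1% to 16.6%, adjusted p = 0.978). The sign for Spp1 rested on single libraries, since the log2 fold change of -0.04 became 0.09 without AngII replicate 4, 0.04 without AngII+MOTS-c replicate 1 and -0.16 without AngII+MOTS-c replicate 4. With all libraries, the interval lay below the 39.1% that was the lower bound of the difference with HNG.

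For Vcan the MOTS-c libraries had 485.5, 500.7, 517.3 and 484.3 CPM, a difference of -4.66% (95% interval -9.3% to 0.217%). Fn1 had 9258, 8599, 9432 and 8854 CPM, a difference of 4.85% (95% interval -0.6% to 10.6%). Both had an adjusted p of 0.924 and overlapped the AngII libraries. Thbs1, at 3496, 3239, 3733 and 3075 CPM, differed by -1.22% (95% interval -9.04% to 7.27%, adjusted p = 0.98).

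Postn had 1224, 1397, 1367 and 1788 CPM with MOTS-c, a difference of -7.24% (95% interval -21.5% to 9.67%, adjusted p = 0.943). Thbs2 had 179.3, 165, 197.4 and 227.4 CPM, a difference of 1.97% (95% interval -11.9% to 18%, adjusted p = 0.982). Sparc had 6435, 6854, 6782 and 7138 CPM, a difference of 0.134% (95% interval -5.81% to 6.45%, adjusted p = 0.999). All 3 overlapped the AngII libraries, and the interval was narrowest for Sparc.

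The signs of the MOTS-c differences of Postn, Thbs2, Thbs1 and Sparc also turned with single libraries left out. For Postn the log2 fold change of -0.11 became 0.01 without AngII replicate 4, -0.23 without AngII+MOTS-c replicate 4, -0.04 without AngII+MOTS-c replicate 1 and -0.11 without both libraries numbered 4. For Thbs2 it went from 0.03 to -0.03 without AngII replicate 2, to -0.06 without AngII+MOTS-c replicate 4 and to 0.13 without AngII replicate 4. Thbs1 and Sparc ran from -0.07 to 0.03 and from -0.03 to 0.03 with libraries left out, and none of these values passed the test.

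**Figure D3:**
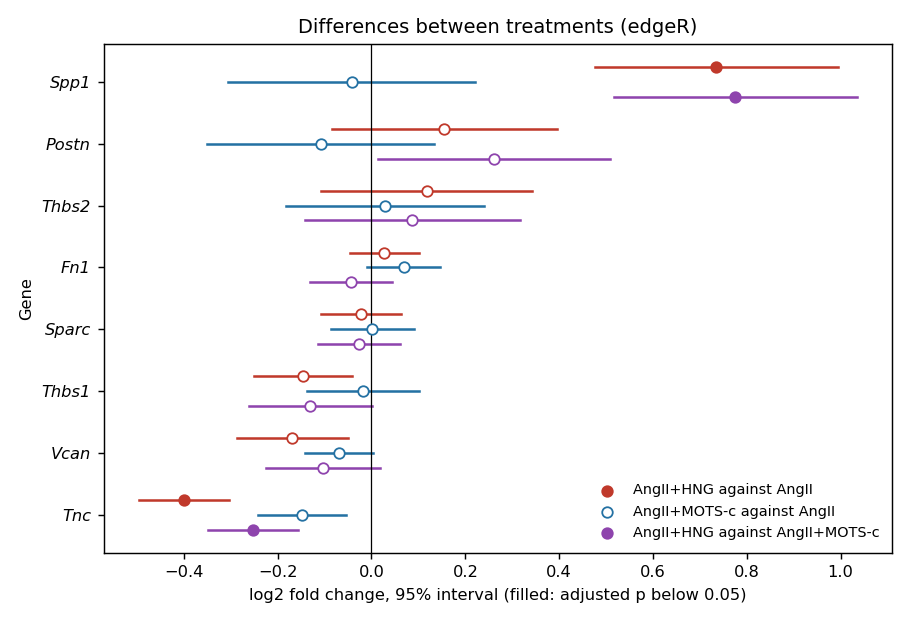
Fitted log2 fold change of each of the 8 genes in the 3 comparisons, with 95% intervals and filled symbols for an adjusted p below 0.05. The filled symbols are Spp1 (0.74 for HNG against AngII and 0.78 for HNG against MOTS-c) and Tnc (-0.40 and -0.25).

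The peptides were also compared with each other, at 10 µmol/L HNG and 5 µmol/L MOTS-c, so that peptide and dose cannot be told apart. This comparison shares the HNG libraries with that of HNG against AngII, and its values are given beside them without being counted as a separate observation. Of the 14448 genes tested 637 passed (4.41%), 381 higher with HNG (2.64%) and 256 lower (1.77%), and 2 of the 8 members passed, 1 in each direction. Spp1 was 1.71-fold higher with HNG than with MOTS-c (log2 fold change 0.78 ± 0.12 SE, adjusted p = 0.00313), and no HNG library overlapped a MOTS-c library. Tnc was lower with HNG by 16.1% (95% interval -21.5% to -10.3%, log2 fold change -0.25 ± 0.04 SE, adjusted p = 0.00651), without overlap in CPM. The smooth muscle and pericyte markers, at 6846 to 7482 CPM with MOTS-c, had 3 of 9 called lower with HNG (Acta2, Cnn1 and Notch3). The macrophage markers had 3 of 12 called higher with HNG (Lyz2, Cd68 and Mrc1). The part of both marker lists in these results was not tested. Without the libraries numbered 4 the log2 fold changes were 0.80 for Spp1 (adjusted p = 0.00191) and -0.26 for Tnc (adjusted p = 0.0297), and without AngII+HNG replicate 3 they were 0.85 (adjusted p = 0.00119) and -0.24 (adjusted p = 0.00913). Groups without overlap were thus seen for 2 members, against 12.5% of genes tested.

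The call of Tnc between the peptides was not kept on FPKM. In FPKM the Tnc groups overlapped, at 34.42 to 39.63 with HNG and 38.75 to 49.36 with MOTS-c, and limma on log2 FPKM gave adjusted p-values of 0.17, 0.16 and 0.0991 under its 3 settings, with log2 fold changes of -0.23, -0.24 and -0.23 that were close to that from counts. The ratio of the deposited FPKM to CPM varied 1.15-fold for Tnc over the 12 libraries, where the median gene varied 1.01-fold, and how the FPKM were computed is not given in the sources used here. The other 6 members did not pass between the peptides. The nearest was Postn, 19.9% higher with HNG (95% interval 0.96% to 42.3%, unadjusted p of 0.0401, adjusted p = 0.234), which passed without AngII+MOTS-c replicate 4 (adjusted p = 0.0494) and not without replicate 4 of both groups (adjusted p = 0.0634). Its log2 fold change of 0.26 was 0.38 and 0.28 in those fits, and 0.16 without AngII+HNG replicate 4 (adjusted p = 0.448). Thbs1 differed by -8.65% (95% interval -16.6% to 0.0198%) and Vcan by -6.86% (-14.4% to 1.34%), with adjusted p-values of 0.261 and 0.341. The log2 fold change of Vcan went from -0.10 to -0.05 without AngII+HNG replicate 3, and that of Thbs1 from -0.13 to -0.09 without AngII+MOTS-c replicate 3. For Thbs2, Fn1 and Sparc the differences were 6.19%, -2.97% and -1.84%, with adjusted p-values of 0.708, 0.603 and 0.768. With libraries left out, the log2 fold change of Fn1 ran from -0.0741 to -0.0283 and that of Sparc from -0.0592 to -0.000749.

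**Figure D4:**
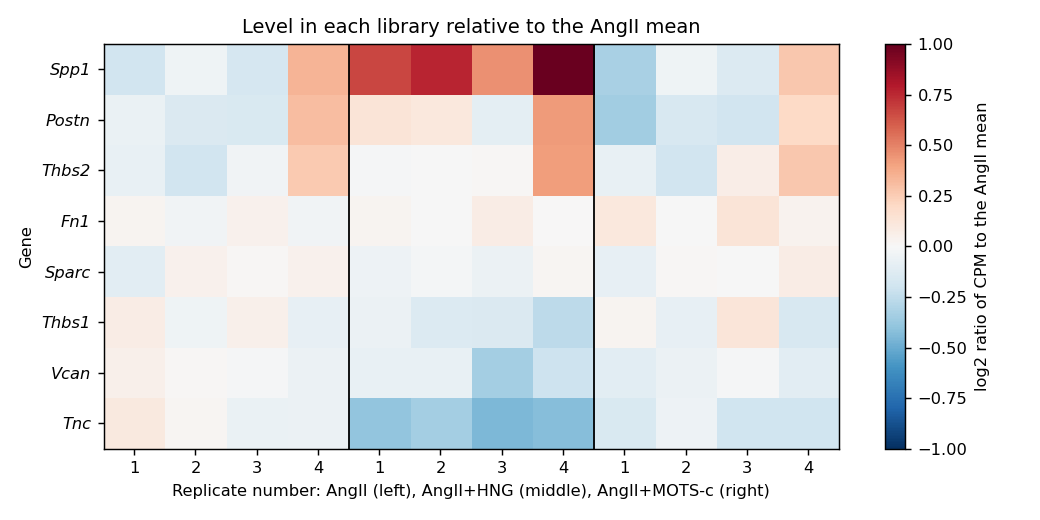
log2 ratio of each library's CPM to the mean of the AngII group, for the 8 genes in rows and the 12 libraries in columns, with a colour scale from -1 to 1. Spp1 is raised across the 4 AngII+HNG libraries and Tnc lowered, while Postn, Spp1 and Thbs2 are raised and Thbs1 lowered in the libraries numbered 4 of all 3 groups.

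Another pattern among the members followed the library number. In the libraries numbered 4, Postn was 1.35-, 1.3- and 1.34-fold the mean of the other 3 libraries of AngII, AngII+HNG and AngII+MOTS-c. Spp1 was 1.39-, 1.28- and 1.35-fold and Thbs2 1.28-, 1.33- and 1.26-fold that mean, and each of these genes was highest in the library numbered 4 of every group. Thbs1 went the other way, at 0.925-, 0.903- and 0.881-fold, and was lowest there in every group. Fn1 and Sparc lay between 0.971- and 1.07-fold.

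The ratio of Thbs1 to Thbs2 in FPKM was 19.4 to 20.2 in AngII replicates 1 to 3 and 14.4 in replicate 4. In AngII+HNG it was 16.3 to 17.7 and 11.5, and in AngII+MOTS-c 19 to 19.7 and 13.6. The ratio of Spp1 to Tnc was 2.47 to 3.22 in AngII, 6.14 to 6.59 in AngII+HNG and 2.66 to 3.12 in AngII+MOTS-c over replicates 1 to 3, and 4.38, 8.03 and 4.72 in the libraries numbered 4. For Spp1 alone the library numbered 4 was at most 1.39-fold the mean of the others, below the 1.66-fold difference of Spp1 with HNG. For Postn and Thbs2 the same ratio was above any difference between treatments. Each group held only 1 library numbered 4. The labels do not say whether libraries of the same number came from the same cultures.

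Genes related to the members by function were taken from 3 lists. The first held 35 other matricellular and related matrix genes, of which 34 were in the table and 25 were tested. With HNG against AngII 5 rose and 5 fell, against 3.4% and 2.58% of all genes tested, and the median log2 fold change of the list was 0.11. Of the 5 genes tested from the CCN family, secreted regulators of adhesion and growth factor signalling, 4 fell and Ccn5 did not pass (log2 fold change 0.14, adjusted p = 0.142). Ccn4 went from 68.05 ± 4.74 to 43.54 ± 3.94 CPM (SD, n = 4), a log2 fold change of -0.64 (adjusted p = 0.000257), and Ccn3 from 390.1 ± 15.8 to 276.7 ± 17.6 CPM, a log2 fold change of -0.49 (adjusted p = 0.000152).

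The genes of that list that rose most with HNG were Acan, which encodes the proteoglycan aggrecan (log2 fold change 0.52, adjusted p = 0.0245), Tgfbi, a fasciclin protein related to periostin (0.47, adjusted p = 0.0021), and Fbln1, a fibulin that binds fibronectin (0.46, adjusted p = 0.0146). Acan lay at 8.798 ± 1.16 CPM in AngII and 12.6 ± 1.88 CPM with HNG and passed in 13 of 21 alternatives. Fbln1, at 61.81 ± 7.13 and 84.96 ± 12.8 CPM, passed in 16 of 21. Against MOTS-c, 5 genes of the list were higher with HNG and 5 lower, against 2.64% and 1.77% of all genes tested. The largest differences were in Ccn4 (-0.59, adjusted p = 0.000309), Acan (0.58, adjusted p = 0.0304), the extracellular matrix protein gene Ecm1 (0.44, adjusted p = 0.000365), Tgfbi (0.44, adjusted p = 0.00232) and the galectin gene Lgals3 (0.41, adjusted p = 0.035). Of these, Lgals3 lost its call in 13 of 21 alternatives and Acan in 10. With MOTS-c against AngII none of the 25 passed.

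The second list held 23 receptors and cell surface partners, all of which were tested. With HNG against AngII 1 rose and 5 fell, against 3.4% and 2.58% of all genes tested, and the median log2 fold change was -0.11. Itgb1, the β1 integrin chain shared by the classical fibronectin receptors, fell from 3841 ± 101 to 3350 ± 133 CPM (log2 fold change -0.20, adjusted p = 0.00853). Sdc2, a heparan sulphate syndecan, fell from 445.4 ± 30.6 to 356 ± 23.6 CPM (log2 fold change -0.32, adjusted p = 0.00563).

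Itga4, the α4 integrin chain that binds fibronectin and osteopontin, fell by 0.32 on the log2 scale (adjusted p = 0.0105), and Sdc1 fell by 0.25 (adjusted p = 0.00945). Lrp1, the endocytic receptor that clears thrombospondins, rose from 1408 ± 25.5 to 1583 ± 48.1 CPM (log2 fold change 0.17, adjusted p = 0.012). Cd44, the osteopontin and hyaluronan receptor, was at 85.72 ± 4.3 and 83.74 ± 6.78 CPM (adjusted p = 0.83), and Cd47, the thrombospondin receptor, at 102.1 ± 2.65 and 104.3 ± 9.98 CPM (adjusted p = 0.82); both were named after their values were seen. Between the peptides 4 of the 23 were lower with HNG and none higher, against 1.77% lower and 2.64% higher among all genes tested. The 4 were Sdc2 (-0.30, adjusted p = 0.00668), Itga4 (-0.30, adjusted p = 0.0316), Itga9 (-0.21, adjusted p = 0.0437) and Itgb1 (-0.16, adjusted p = 0.0421). Itgb1 lost its call between the peptides in 15 of 21 alternatives, Itga9 in 11 and Itga4 in 9. None passed with MOTS-c against AngII.

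The third list held 38 processing enzymes, binding partners and regulators, of which 37 were tested, and 7 rose and 8 fell with HNG against AngII, against 3.4% and 2.58% of all genes tested, with a median log2 fold change of -0.06. Has2, which makes the hyaluronan that versican binds, fell from 7.014 ± 0.845 to 4.226 ± 0.29 CPM (log2 fold change -0.73, adjusted p = 0.00227). Tgfb3, a TGF-β ligand, fell from 732.4 ± 54.8 to 549 ± 41.3 CPM (-0.41, adjusted p = 0.0021). The urokinase gene Plau rose (0.44, adjusted p = 0.0187), and so did the metalloelastase gene Mmp12 (0.47, adjusted p = 0.00148). Over 21 alternatives Plau lost its call in 5 and Tgfb3 in 3, while Has2 and Mmp12 kept theirs.

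Between the peptides 4 genes of the third list were higher with HNG and 5 lower, against 2.64% and 1.77% of all genes tested. The largest differences were in Has2 (-0.59, adjusted p = 0.0196), the versican-cleaving protease gene Adamts5 (0.44, adjusted p = 8.3e-05), Mmp12 (0.41, adjusted p = 0.0143), the ligand gene Tgfb2 (-0.38, adjusted p = 0.00246) and the gelatinase gene Mmp2 (0.36, adjusted p = 0.0029). Has2 lost its call between the peptides in 8 of 21 alternatives and Mmp12 in 3. None of the 37 passed with MOTS-c against AngII. Without the libraries numbered 4, the HNG comparison called 8, 4 and 13 genes of the 3 lists in place of 10, 6 and 15, and the counts ran from 6 to 12, 3 to 11 and 8 to 17 over 21 alternatives. Between the peptides the counts of 10, 4 and 9 became 8, 2 and 8 without those libraries and ran from 6 to 13, 1 to 6 and 4 to 18.

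**Figure D5:**
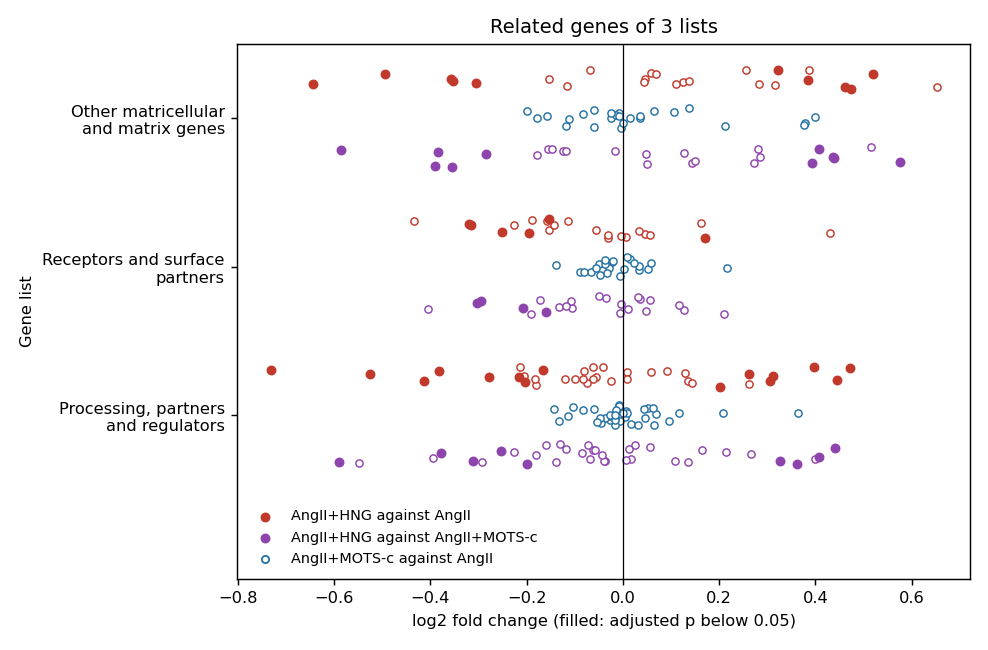
Fitted log2 fold changes of the tested genes of the 3 related lists in the 3 comparisons, 1 point for each gene, filled where the adjusted p was below 0.05. HNG against AngII and HNG against MOTS-c hold filled points on both sides of 0, while MOTS-c against AngII holds no filled point.

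For each member the genes with the most similar profile were sought among 9242 genes by Pearson's r of log2 CPM over the 12 libraries. These r are the highest of many and are given as a description, and they share the treatments and the library numbers. The closest to Spp1 were Dnm1 (r = 0.986) and Ahnak2 (r = 0.976), and the closest to Tnc were Hbegf, an EGF-family growth factor (r = 0.963), and Wdr75 (r = 0.953). With the group means removed, r was 0.949 for Dnm1 and 0.648 for Hbegf. Postn was closest to Gsn (r = 0.954) and to the collagen-binding proteoglycan gene Dcn (r = 0.951), Thbs1 to Edn1, the endothelin precursor (r = 0.923), and Ddah1 (r = 0.916), and Thbs2 to the macrophage marker Csf1r (r = 0.926) and Zmiz1 (r = 0.913). Vcan was closest to Taf2 (r = 0.964) and Actb (r = 0.957), Fn1 to Tead4 (r = 0.91) and Hs6st1 (r = 0.856), and Sparc to Gem (r = 0.876) and Ints14 (r = 0.83).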

How the data were processed

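Read counts and FPKM were deposited by the authors as tables of 22850 features by 12 libraries, from which the 8 genes were taken by symbol. Per the labels, each library came from primary rat atrial fibroblasts. The submitters' processing notes name HISAT2, Picard 1.41 and SAMtools 0.1.18, and the counting tool, its strand setting, the build and the computation of FPKM are not given in the sources used here, so that reads of overlapping or antisense genes could not be told apart.

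Counts were scaled to CPM by the library total times its TMM factor, with the factors computed over all 12 libraries. Each pair of groups was fitted over all genes with edgeR 4.0.16 in R 4.3.3 (filterByExpr, TMM factors, quasi-likelihood F test, Benjamini-Hochberg adjustment, threshold 0.05). Standard errors were the absolute log2 fold change divided by the square root of F. The fit was also run on simulated counts, whose outcome is not given here and is not used as support. DESeq2 1.42.0, limma 3.58.1 on log2(FPKM + 1) or log2(FPKM + 0.1), other filters and scalings, blocks and the omission of single libraries were tried as alternatives. Named were the 8 members, up to 5 genes past the threshold with the largest change from each related list and comparison, and the 2 genes most like each member. One gene that the rule names is not reported here. Members and lists were chosen with earlier results of these data known. In each group the library names give replicates 2 and 3 a common number. Their counts differed beyond sampling noise, so they were kept as separate libraries. That check cannot show whether they came from separate cultures, since 2 libraries of 1 culture can also differ beyond sampling noise. Sequences are from RefSeq (GRCr8), in which 81.6% of the features were found by symbol.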

Additional observations from a re-analysis of the deposited data

Results flagged for a closer look

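In 2 of 24 sets of 4 libraries (8 genes in 3 groups), 1 library lay far from the others by Dixon's criterion for 4 values, which chance passes in about 1 of 20 sets. Postn was at 1932 CPM in AngII replicate 4, against 1401, 1412 and 1484 CPM in the other AngII libraries. Thbs2 was at 251.3 CPM in AngII+HNG replicate 4, against 186.8, 188.1 and 190.5 CPM in the other libraries of that group. Both were libraries numbered 4, in which the same genes were also highest in the other groups, and neither gene passed the edgeR test between treatments with all libraries and no block.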

How the results depend on the processing

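Against AngII, Spp1 stayed higher and Tnc lower with HNG in 21 of 21 alternatives, at log2 fold changes of 0.638 to 0.868 and -0.423 to -0.336. Between the peptides Spp1 held in 21 of 21, with an adjusted p of at most 0.044. Tnc held there in 18 of 21, where limma on log2(FPKM + 1), on log2(FPKM + 0.1) and with a mean FPKM of at least 1 left 1 member called. A replicate block, made although the same numbers deviated together in only some pairs (r of -0.0164 to 0.167 for HNG and AngII, 0.0325 to 0.151 for MOTS-c and AngII, and 0.0126 to 0.272 for the peptides, with 3, 6 and 6 of 8 libraries closest to their own number), called 5 members for HNG against AngII, adding Postn (adjusted p = 0.0243), Thbs1 (0.012) and Vcan (0.0299), and 3 between the peptides, adding Postn (0.00942). Of all genes, the replicate block called 1111 for HNG against AngII. With a block by library name number 4 members passed against AngII, beside 1113 of all genes, and with DESeq2 4, beside 1191. AngII+MOTS-c replicate 1 carries a library name number that no other library has, so that the block by library name number gives it no partner. Leaving out single libraries gave 2 to 2 members for HNG against AngII, 0 to 0 for MOTS-c against AngII and 2 to 3 between the peptides. Of 35 related list genes and macrophage markers called against AngII, 18 passed in every alternative that gave a value, as did 12 of 26 between the peptides, and none reversed.

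Over all genes, HNG against AngII called 869 in the main fit. It called 1035 with all 12 libraries in one fit, 1111 and 1113 with the blocks, and 1191 with DESeq2. Fewer were called with replicates 2 and 3 summed (577) and with limma on log2(FPKM + 1) and log2(FPKM + 0.1) (475 and 496). Without replicate 4 of both groups, an alternative chosen after seeing the data, 541 were called. With single libraries left out 431 to 932 were called (431, 485 and 512 without AngII replicates 1, 2 and 3). MOTS-c against AngII called 2 with the replicate block, 4 with DESeq2, 0 with all 12 libraries, 0 with replicates 2 and 3 summed, 0 with limma at a mean FPKM of at least 1, and 0 to 3 with libraries left out (3 without AngII+MOTS-c replicate 1). Between the peptides 1054 were called with the replicate block, 975 with all 12 libraries in one fit, 1034 with DESeq2, 304 and 319 with limma, 377 without replicate 4 of both groups, and 322 to 625 with single libraries left out (324, 322 and 389 without AngII+MOTS-c replicates 1, 2 and 3, 416 without AngII+HNG replicate 2). The cause was not tested.

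Signs reversed only in differences that passed no test. Sparc with MOTS-c against AngII was -0.0068 in the block by library name number and -0.007551 without replicate 4 of both groups. With libraries left out, the MOTS-c differences ran from -0.0684 to 0.0259 for Thbs1, -0.0323 to 0.0275 for Sparc, -0.0629 to 0.127 for Thbs2, -0.227 to 0.0117 for Postn and -0.163 to 0.0914 for Spp1, and between the peptides from -0.0264 to 0.179 for Thbs2.

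The lowest level of a member was 165 CPM, far above the 0.107 CPM that 3 counts gave at most. With 4 libraries a group, the intervals of Postn, Spp1 and Thbs2 remained wide, and a member that missed the threshold was not shown to be equal between groups.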
